A study of Mus musculus with 8 samples.

Results

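The genes described here encode the mitochondrial ribosome and the translocases that carry proteins into mitochondria. They were selected by symbol, as every gene whose symbol begins with Mrpl, Mrps, Timm or Tomm followed by a digit and which had at least 1 array row naming no other gene, without pseudogenes. This gave 94 of the 22180 genes with such a row, namely 43 Mrpl genes (large subunit), 28 Mrps genes (small subunit), 15 Timm genes (inner membrane and intermembrane space) and 8 Tomm genes (outer membrane). For 11 of the 94, which had several rows, the brightest row over the 8 arrays was used, and 9 further genes with these prefixes lay only on rows shared with another gene and were not used.

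RNA came from CD8 T cells sorted from spleen, and 4 arrays carried RNA from mice given an antibody that blocks the interleukin 10 receptor (anti-IL-10R) and 4 carried RNA from mice given the isotype control antibody. Mice of both groups were female C57BL/6 animals, written C56BL/6 in the strain label, that had been transplanted with chronic lymphocytic leukaemia from the Eµ-TCL1 mouse, in which a transgene causes a B cell leukaemia; treatment started 3 weeks after transplantation and ran for 2 weeks, and cells were taken after 5 weeks. No source used here gives the age of the mice or says whether each array stands for a separate animal, so the p-values describe only array-to-array spread, which may be technical. The sort kept lineage-negative, TCRb-positive, CD8-positive cells with high PD-1, an inhibitory receptor of chronically stimulated T cells, with little CD127 and with CD44 at an intermediate or high level.

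Mitochondrial DNA encodes only a few subunits of the respiratory chain, and these are made inside the organelle by a ribosome of its own, the mitoribosome, whose protein parts are all encoded in the nucleus. Those parts, like nearly all other mitochondrial proteins, are made in the cytosol and pass the outer membrane through the TOM complex. From there the TIM23 complex takes proteins with a cleavable presequence, and small chaperones of the intermembrane space pass carrier proteins to the TIM22 complex. T cells that are activated and divide are known to build more mitochondria, which needs both machines.

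The arrays had similar medians over all rows, 5.19 to 5.31 on the log2 scale. Isotype replicate 1 stood apart, with Pearson correlations to the other 7 arrays of 0.915 to 0.929 across the 12019 tested genes, against 0.962 to 0.986 among those 7, and results are given with and without it. All 7 markers of the sort were above the limit for dim genes, and their mean was 11.22 to 11.26 in the anti-IL-10R arrays and 10.74 to 11.08 in the isotype arrays. Of 16 B cell markers, 14 had a row, 7 were above the limit, and their summed log2 signal was 75.2 to 77.7 in the anti-IL-10R arrays and 76.6 to 84.0 in the isotype arrays. Of these 14, 12 were lower in the anti-IL-10R group, as most members were. Cd79a (means 5.60 in the anti-IL-10R arrays and 5.97 in the isotype arrays), Cd79b (5.75 and 6.16, likewise), Bank1 and Blk lay above the limit of 5.24. So did Cd5, H2-Aa and H2-Ab1, and the other 7, Ms4a1, Cd22 and Pax5 among them, lay below it. Cd5 was bright in every array of these sorted T cells (means 9.93 and 9.91, likewise), so its signal cannot be read as a trace of B cells. It was nonetheless kept in the summed signal and in the covariate used below. For the other cell types, 3 of 11 myeloid, 2 of 6 NK cell, 2 of 4 CD4 and regulatory T cell and 1 of 3 erythroid and platelet markers were above the limit. The NK cell markers above it were Eomes (means 10.51 in the anti-IL-10R arrays and 10.25 in the isotype arrays) and Klrk1 (6.79 and 7.48, likewise). Ncr1, Klrb1c, Tyrobp and Fcer1g were below it. None of these markers or of the B cell markers passed the test between groups. Among the isotype arrays, replicate 1 had the highest summed signal of the myeloid, NK cell, CD4 and regulatory T cell, and erythroid and platelet lists. The myeloid sum was 52.0 to 54.3 in the anti-IL-10R arrays and 52.2 to 58.1 in the isotype arrays, and the CD4 and regulatory T cell sum was 20.3 to 21.5 in the anti-IL-10R arrays and 20.6 to 23.8 in the isotype arrays. Its Foxp3 signal, of regulatory T cells, was 7.97, against 5.08 to 5.64 in the anti-IL-10R arrays and 5.46 to 5.95 in the other isotype arrays. Its Lyz2 signal, of myeloid cells, was 6.66, against 4.96 to 5.47 in the anti-IL-10R arrays and 5.26 to 5.67 in the other isotype arrays. The part of these markers in the results was not tested, apart from a fit with the B cell markers given below. The mean of the B cell markers was 5.37 to 5.55 in the anti-IL-10R arrays and 5.47 to 6.00 in the isotype arrays. It thus partly followed the groups, and that fit cannot fully tell the markers and the treatment apart.

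After IL-10R blockade, mitoribosome and import genes were mostly lower. Of the 94 genes, 92 passed the filter on dim genes (Mrps14 and Tomm20l did not), and 80 of these 92 were lower and 12 higher in the anti-IL-10R group. Their median difference, anti-IL-10R minus isotype, was −0.25 on the log2 scale (quartiles −0.36 and −0.12), against a median of 0.03 and 45.3% lower over all 12019 tested genes. Past the threshold, a limma adjusted p below 0.05 over all tested genes, 6 members fell and 0 rose, whereas 1.3% of all tested genes (156) fell and 1.23% (148) rose. Scaling moved that split over all genes, to 427 lower and 204 higher after quantile normalization and to 75 lower and 42 higher after median centring. The 6 were Timm50, Mrps22, Mrps28, Mrpl15, Mrpl23 and Mrps33, which is 6.52% of the tested members. At an unadjusted p below 0.05, 30 of the 92 were lower and 1, Timm10b, was higher, against 8.53% lower (1025) and 11.5% higher (1377) of all tested genes. In bulk RNA of a sorted population, a smaller share of cells with a high level and a lower level in each cell cannot be told apart.

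**Figure D1:**
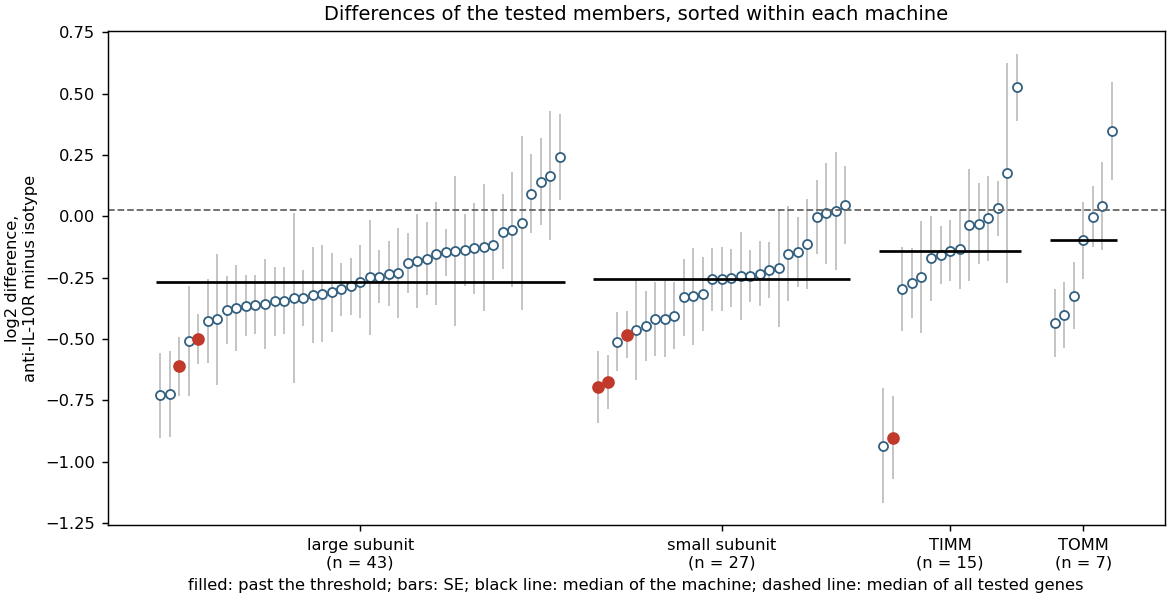
Log2 difference between anti-IL-10R and isotype arrays for the 92 tested members, sorted within the large subunit, small subunit, TIMM and TOMM genes, with bars for the SE. Filled points mark the 6 members past the threshold, black lines the median of each machine (−0.27, −0.26, −0.14 and −0.10), and the dashed line the median of all tested genes, 0.03.

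The calls depended on single arrays. Without isotype replicate 1, 18 members fell and Timm10b rose, the 6 above were all among the 18, and 5.9% of all tested genes fell and 3.35% rose; 87 of the 92 were then lower, with a median of −0.34. Leaving out any other single array left 0 members past the threshold, in fits that called 1 to 38 genes lower and 2 to 26 higher in all. Groups that did not overlap, with every anti-IL-10R array below every isotype array, were seen for 17 tested members, against 5.99% of all tested genes, and the opposite order was seen for Timm10b alone, against 9.32%. With the mean of the B cell markers of each array as a covariate, 0 members passed, in a fit that called 1 gene lower and 2 higher in all, and the members' median was −0.35.

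The large subunit of the mitoribosome, which forms the peptide bond, had a median of −0.27, with 39 of 43 members lower, 2 past the threshold and 15 at an unadjusted p below 0.05 (8.53% of all tested genes). Mrpl15, a protein of the large subunit with a bacterial counterpart, had values of 7.49, 7.74, 7.31 and 7.32 in the anti-IL-10R arrays and of 8.07, 8.16, 8.04 and 8.03 in the isotype arrays. Every anti-IL-10R array lay below the 4 isotype arrays, which were close together. The difference was −0.61 ± 0.12 (SE; 95% CI −0.88 to −0.34, limma adjusted p = 0.0378), a level 1.53-fold lower. Mrpl23, which in bacteria lies at the exit of the peptide tunnel, had 8.45, 8.66, 8.67 and 8.53 in the anti-IL-10R arrays and 9.07, 9.15, 9.11 and 8.98 in the isotype arrays. The groups were again separate, and Mrpl23 fell by 0.50 ± 0.10 (adjusted p = 0.0408, limma).

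Mrpl28 and Mrpl54 had larger differences than these but a wider spread, and did not pass. Mrpl28 had 8.30, 8.0, 7.99 and 7.51 in the anti-IL-10R arrays, against 8.52, 8.94, 8.58 and 8.68 in the isotype arrays (difference −0.73 ± 0.17, limma adjusted p = 0.0579). Mrpl54 had 8.07, 8.18, 7.89 and 7.62 in the anti-IL-10R arrays, against 8.25, 8.88, 8.68 and 8.84 in the isotype arrays (−0.72 ± 0.17, adjusted p = 0.0620). In both genes the groups did not overlap, anti-IL-10R replicate 4 was lowest of all arrays and isotype replicate 1 lowest among the isotype arrays; without that array their adjusted p was 0.0271 and 0.00939. Mrpl40, Mrpl45 and Mrpl55 were also separate between groups, with differences of −0.33 ± 0.12, −0.36 ± 0.12 and −0.36 ± 0.12, and Mrpl57 overlapped, with −0.38 ± 0.14; none of these 4 passed.

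The 4 large subunit members with higher means were Mrpl4, Mrpl52, Mrpl39 and Mrpl24, and none passed. Mrpl4 had 9.54, 9.52, 9.38 and 9.34 in the anti-IL-10R arrays and 8.65, 9.43, 9.40 and 9.32 in the isotype arrays, a difference of 0.24 ± 0.18. The groups overlapped, isotype replicate 1 lay far below the other 7 arrays, and without replicate 1 the difference was 0.06. Mrpl52, Mrpl39 and Mrpl24 differed by 0.17 ± 0.26, 0.14 ± 0.18 and 0.09 ± 0.16, and without isotype replicate 1 by −0.13, −0.04 and −0.07. Isotype replicate 1 was the lowest array of all in each of these 4 genes.

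The small subunit, which reads the messenger RNA, had a median of −0.26, with 24 of 27 tested members lower, 3 past the threshold and 10 at an unadjusted p below 0.05 (8.53% of all tested genes). Mrps28 had the smallest p of all members. It measured 6.70, 6.63, 6.54 and 6.55 in the anti-IL-10R arrays and 7.08, 7.43, 7.30 and 7.31 in the isotype arrays. Every anti-IL-10R array was below every isotype array, and Mrps28 fell by 0.67 ± 0.11 (95% CI −0.92 to −0.43, limma adjusted p = 0.0236), which is 1.60-fold lower.

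Mrps22, a small subunit protein that bacteria lack and whose loss causes a human mitochondrial disease, had 6.80, 6.77, 7.05 and 7.08 in the anti-IL-10R arrays and 7.50, 7.83, 7.34 and 7.82 in the isotype arrays. The groups did not overlap, and Mrps22 fell by 0.70 ± 0.15 (limma adjusted p = 0.0438). Mrps33, another protein without a bacterial counterpart, had 7.59, 7.71, 7.69 and 7.53 in the anti-IL-10R arrays and 8.05, 8.14, 8.14 and 8.12 in the isotype arrays. Within each group the 4 values lay close together (SD 0.08 and 0.04), and Mrps33 fell by 0.48 ± 0.10 (adjusted p = 0.0382, limma).

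**Figure D2:**
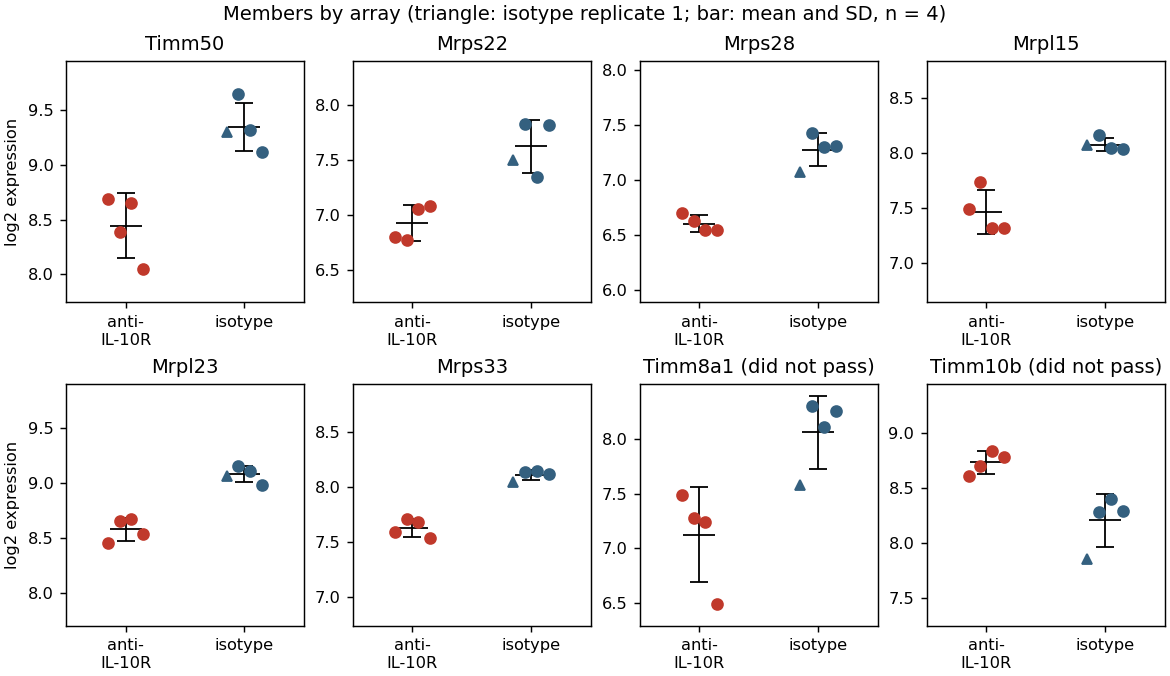
Log2 expression in each array, anti-IL-10R left and isotype right, for the 6 members past the threshold and for Timm8a1 and Timm10b, which did not pass; bars give the mean and SD of 4 arrays and the triangle isotype replicate 1. The groups did not overlap in any of the 8, and Timm10b alone of them was higher in the anti-IL-10R arrays.

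Among the other small subunit members, Mrps2 and Mrps23 had separate groups, with differences of −0.51 ± 0.12 (limma adjusted p = 0.0579) and −0.45 ± 0.14 (adjusted p = 0.125). Mrps18b, Mrps5, Mrps17 and Mrps15 overlapped between groups and differed by −0.42 ± 0.15, −0.42 ± 0.15, −0.41 ± 0.14 and −0.25 ± 0.12. A second row of Mrps18b had the opposite sign, 0.27, so its direction depends on the row; the same held for Mrpl10 (other row 0.01), Mrps18c (0.15) and Mrps16 (−0.03). Mrps11, Mrps16 and Mrps30 were at or slightly above 0 (0.05 ± 0.16, 0.01 ± 0.21 and 0.02 ± 0.24), and below it without isotype replicate 1 (−0.09, −0.20 and −0.15). Mrps16 had 11.13, 11.26, 11.12 and 11.08 in the anti-IL-10R arrays and 10.50, 11.61, 11.22 and 11.21 in the isotype arrays, so the isotype group held both the lowest and the highest value. Mrps14 was too dim for the test, at 4.53 to 5.50 in the anti-IL-10R arrays and 4.72 to 5.85 in the isotype arrays.

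Symbols do not follow structure in every case. Mrps18a and Mrps30 sit in the large subunit of mammalian mitoribosomes, and Mrps36 is known as a subunit of the 2-oxoglutarate dehydrogenase complex; they differed by −0.26, 0.02 and −0.15. With the first 2 moved to the large subunit and Mrps36 left out, the medians were −0.26 for the large and −0.29 for the small subunit. Members that bacteria also have and members found only in mitochondria were both mostly lower. The 27 large subunit proteins of the bacterial type had a median of −0.25 (25 lower, Mrpl15 and Mrpl23 past the threshold), and the 16 found only in mitochondria one of −0.32 (14 lower). In the small subunit, the 14 tested proteins of the bacterial type had a median of −0.24 (12 lower, Mrps28 past the threshold) and the 10 found only in mitochondria one of −0.37 (10 lower, Mrps22 and Mrps33 past the threshold). This grouping was made after the values were seen, and the differences between its medians were not tested.

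Among the import genes, values ran in both directions. Of the 15 Timm members 12 were lower (median −0.14), and Timm50 was the only import gene to pass. The Timm median rested on single arrays, at −0.28 without isotype replicate 1, −0.0861 without isotype replicate 2 and −0.0816 without anti-IL-10R replicate 4. Timm50, the receptor of the TIM23 complex that meets presequences as they leave the TOM channel, had 8.69, 8.39, 8.65 and 8.05 in the anti-IL-10R arrays and 9.30, 9.64, 9.32 and 9.12 in the isotype arrays. The groups were far apart, and anti-IL-10R replicate 4 was the lowest array. Timm50 fell by 0.90 ± 0.17 (95% CI −1.29 to −0.52, limma adjusted p = 0.0338), to a level 1.87-fold lower, and the difference was −0.92 without isotype replicate 1.

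The other TIM23 subunits did not pass with all arrays. Timm23, which builds the channel, had 10.15, 10.36, 10.19 and 10.10 in the anti-IL-10R arrays and 10.02, 10.82, 10.46 and 10.68 in the isotype arrays. Isotype replicate 1 was the lowest of all arrays and the other 3 isotype arrays were above all anti-IL-10R arrays, with a difference of −0.30 ± 0.17 in all and of −0.45 (limma adjusted p = 0.0409) without that array. Timm17a and Timm17b, alternative channel subunits, differed by −0.03 ± 0.23 and −0.03 ± 0.17 (95% CI −0.55 to 0.48 and −0.40 to 0.34). Timm44, which ties the import motor to the channel, differed by −0.01 ± 0.17 (−0.39 to 0.38). Without isotype replicate 1 the differences of Timm17a, Timm17b and Timm44 were −0.29, −0.16 and 0.09.

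Timm21, which links TIM23 to the respiratory chain, had 7.63, 7.63, 7.31 and 6.87 in the anti-IL-10R arrays and 5.62, 7.87, 7.59 and 7.65 in the isotype arrays. Isotype replicate 1 lay far below the other 7, and the difference was 0.18 ± 0.45 with it and −0.34 without it.

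The TIM22 complex, which inserts carriers with several membrane spans, held Timm10b, the 1 member with separate groups in the other direction. Timm10b, a small TIM that stays bound to TIM22, had 8.60, 8.70, 8.84 and 8.78 in the anti-IL-10R arrays and 7.85, 8.28, 8.40 and 8.29 in the isotype arrays. All anti-IL-10R arrays were above all isotype arrays, but the difference of 0.53 ± 0.14 did not pass (95% CI 0.22 to 0.83, limma adjusted p = 0.0739; 0.41 and 0.0325 without isotype replicate 1). A second row of Timm10b differed by −0.06, so the 2 rows do not share a direction. Timm22, the channel, and Timm29, its partner, differed by −0.14 ± 0.12 and −0.13 ± 0.16.

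The chaperones of the intermembrane space were lower in 5 of 6 cases, and none passed. Timm8a1, whose human counterpart is mutated in a deafness and dystonia syndrome, had 7.48, 7.28, 7.24 and 6.49 in the anti-IL-10R arrays and 7.58, 8.30, 8.11 and 8.25 in the isotype arrays. The groups were separate by a narrow margin, between anti-IL-10R replicate 1 and isotype replicate 1, and the difference was −0.94 ± 0.23 (limma adjusted p = 0.0676; −1.10 and 0.0153 without isotype replicate 1). Its 3 rows did not agree, since the other 2 differed by −0.39 and 0.18, so the size for this gene is uncertain. Timm13, which pairs with Timm8 proteins, differed by −0.27 ± 0.14, and Timm8b by −0.16 ± 0.12. Timm9 and Timm10, which form a ring that escorts carriers, differed by −0.25 ± 0.23 and −0.17 ± 0.17, and Timm8a2, a close paralog of Timm8a1, by 0.03 ± 0.11.

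**Figure D3:**
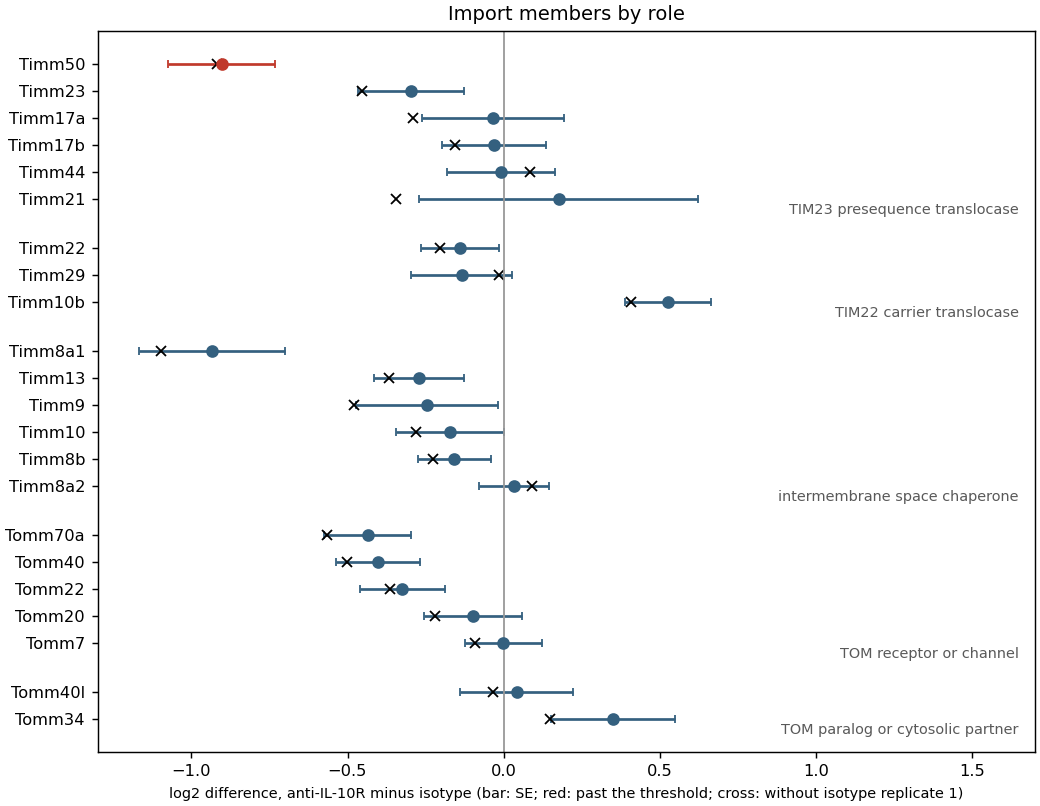
Log2 difference, anti-IL-10R minus isotype, for the 22 tested import genes grouped by role, with bars for the SE; crosses give the difference without isotype replicate 1. Timm50 (red) passed the threshold, Timm10b had the highest difference at 0.53, and Timm21 moved to −0.34 without that array.

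In the TOM complex, the receptors and the channel were lower and none passed with all arrays. The median of the 7 tested Tomm genes was −0.10 with all arrays, −0.22 without isotype replicate 1 and 0.0321 without isotype replicate 2. Tomm70a, the receptor for carrier proteins, had 7.77, 7.66, 7.79 and 7.77 in the anti-IL-10R arrays and 7.80, 8.31, 8.25 and 8.38 in the isotype arrays. The anti-IL-10R values were tightly grouped, isotype replicate 1 lay just above them and the other 3 isotype arrays far above, with a difference of −0.44 ± 0.14 (limma adjusted p = 0.125; −0.56 and 0.00927 without that array). Tomm40, the channel of the outer membrane, had 8.26, 8.45, 8.21 and 8.21 in the anti-IL-10R arrays and 8.39, 8.89, 8.83 and 8.63 in the isotype arrays. The groups overlapped through isotype replicate 1 alone, and the difference was −0.40 ± 0.13 (adjusted p = 0.135 in limma, and 0.0235 without that array).

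Tomm22, the central receptor, differed by −0.32 ± 0.14 with separate groups, and Tomm20, the presequence receptor, by −0.10 ± 0.16. Tomm7, a small subunit that also stabilises the kinase PINK1, was level, at 8.46 ± 0.08 in the anti-IL-10R arrays and 8.46 ± 0.20 in the isotype arrays (SD, n = 4 each; 95% CI of the difference −0.28 to 0.27). The 2 tested genes that are not core subunits had positive differences, Tomm34, a cytosolic cochaperone, with 0.35 ± 0.20 and Tomm40l, a paralog of the channel, with 0.04 ± 0.18. Without isotype replicate 1 these were 0.15 and −0.03. Tomm20l was too dim for the test, at 4.27 to 4.67 in the anti-IL-10R arrays and 4.41 to 4.68 in the isotype arrays.

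Array by array, the spread within groups was shared by many members. The mean of all 94 was 7.77, 7.83, 7.71 and 7.56 in the anti-IL-10R arrays and 7.67, 8.17, 7.93 and 8.05 in the isotype arrays. The 3 isotype arrays other than replicate 1 were above all anti-IL-10R arrays, and replicate 1 lay among the anti-IL-10R values. Among isotype arrays, replicate 1 was lowest in 68 of the 92 tested members and replicate 2 highest in 58; among anti-IL-10R arrays, replicate 4 was lowest in 60. The mean of the large subunit was 7.79 ± 0.14 in the anti-IL-10R arrays and 8.04 ± 0.24 in the isotype arrays (SD, n = 4 each), and that of the small subunit was 7.41 ± 0.09 in the anti-IL-10R arrays and 7.69 ± 0.18 in the isotype arrays. The mean of the Timm genes was 8.06 ± 0.14 in the anti-IL-10R arrays and 8.23 ± 0.23 in the isotype arrays, and that of the Tomm genes was 7.74 ± 0.08 in the anti-IL-10R arrays and 7.86 ± 0.18 in the isotype arrays. Without isotype replicate 1 the isotype means were 8.15, 7.77, 8.34 and 7.95 for the large subunit, small subunit, Timm and Tomm genes. The mean of the other 11927 tested genes was 7.20 in isotype replicate 1 and 7.38 to 7.44 in the other 7 arrays.

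**Figure D4:**
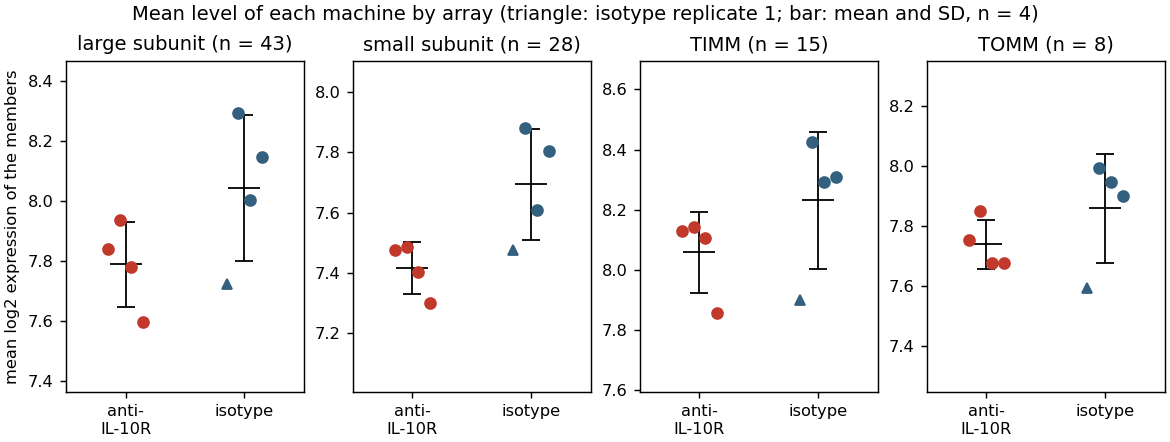
Mean log2 expression of the large subunit, small subunit, TIMM and TOMM genes in each array, anti-IL-10R left and isotype right; bars give the mean and SD of 4 arrays. Isotype replicate 1 (triangle) lies among or below the anti-IL-10R arrays in all 4 panels, and the other 3 isotype arrays lie above every anti-IL-10R array.

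Related mitochondrial genes outside the prefixes were compared as 7 lists, with 104 tested genes in all, of which 61 were lower and 43 higher. In limma's fit 0 of the 104 passed; at an unadjusted p below 0.05, 18 were lower and 3 higher, against 8.53% and 11.5% of all tested genes. Without isotype replicate 1, 83 of the 104 were lower, their median was −0.19, and limma called 9 lower, against 5.9% of all tested genes. With all arrays their median was −0.08, against −0.25 for the members, and differences between the medians of lists were not tested.

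Import and folding partners had a median of −0.18, with 18 of 23 lower (−0.33 and 21 without isotype replicate 1). Hspa9, the mitochondrial HSP70 that pulls proteins through TIM23, averaged 9.35 ± 0.11 in the anti-IL-10R arrays and 9.90 ± 0.18 in the isotype arrays (SD, n = 4 each), a difference of −0.55 ± 0.12 with separate groups that missed the threshold (limma adjusted p = 0.0505, and 0.00941 without isotype replicate 1). Dnajc15, a cochaperone of the import motor, Gfer, the oxidase of the intermembrane space relay, and Hspd1, the matrix chaperonin, differed by −0.73 ± 0.18, −0.62 ± 0.16 and −0.50 ± 0.14, each with separate groups and without passing. Genes of mitochondrial DNA transcription and replication had a median of −0.20 with 9 of 13 lower, among them Tfam, which packages mitochondrial DNA (−0.42 ± 0.15), Ssbp1 (−0.26 ± 0.11), Hsd17b10 (−0.22 ± 0.13) and Supv3l1 (−0.20 ± 0.11). Genes taken as a measure of mitochondrial content had a median of −0.10 with 11 of 15 lower, led by Phb2, a prohibitin of the inner membrane (−0.31 ± 0.09), Vdac3 (−0.34 ± 0.14), Slc25a5 (−0.27 ± 0.12) and Cisd1 (−0.29 ± 0.17).

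With all arrays, the medians of the assembly, translation factor and regulator lists were near that of all genes, 0.03. Without isotype replicate 1 they were −0.06 (16 of 25 lower), −0.15 (10 of 14) and −0.07 (8 of 11), against −0.01 for all tested genes. Assembly factors of the mitoribosome and its RNA had a median of 0.04 with 10 of 25 lower. In that list Noa1 and Rbfa differed by −0.42 ± 0.14 and −0.27 ± 0.10, and Nsun4 and Rpusd4 by 0.38 ± 0.14 and 0.41 ± 0.17. Translation factors had a median of −0.01 with 7 of 14 lower. Tsfm, the exchange factor of the mitochondrial elongation factor, differed by −0.51 ± 0.19, and Mtif3, Guf1 and Oxa1l, the insertase of the inner membrane, by 0.38 ± 0.20, 0.38 ± 0.21 and 0.30 ± 0.14. Of the 3 mitoribosomal proteins with other symbols, Dap3 was at 0.09 ± 0.28, Ptcd3 at 0.07 ± 0.20 and Gadd45gip1 at −0.19 ± 0.15; without isotype replicate 1 they were at −0.20, −0.13 and −0.32.

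Regulators of mitochondrial biogenesis had a median of 0.01 with 5 of 11 lower. Myc, a transcription factor of growth with many nuclear targets among mitochondrial genes, differed by −0.59 ± 0.16 with separate groups (limma adjusted p = 0.0799, and 0.0296 without isotype replicate 1). Pprc1, a coactivator of nuclear respiratory genes, differed by −0.34 ± 0.15, and Gabpb1 and Gabpb2, partner subunits of the ETS factor GABPA, by −0.16 ± 0.10 and 0.19 ± 0.14.

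**Figure D5:**
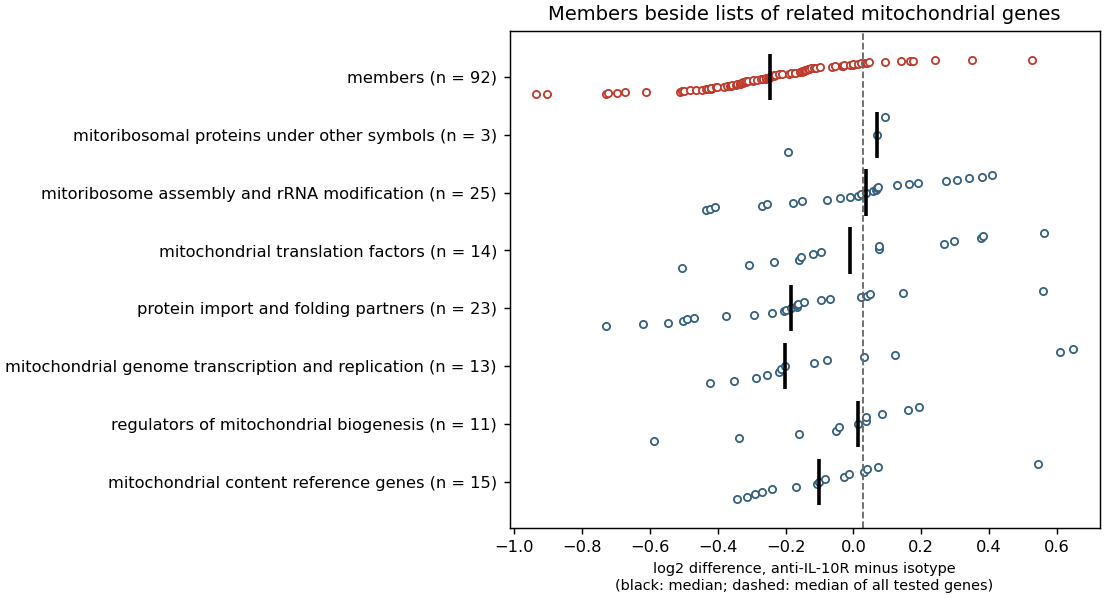
Log2 difference, anti-IL-10R minus isotype, of the 92 tested members (top) and of the tested genes of 7 related lists, 1 point per gene, with black bars for medians and the dashed line for the median of all tested genes. The medians ran from −0.25 for the members and −0.20 for transcription and replication genes to 0.07 for the 3 mitoribosomal proteins under other symbols.

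Promoters were looked at because most members were lower and because nuclear genes for mitochondrial proteins are known to be bound by NRF1 and by ETS factors such as GABPA. RefSeq windows of GRCm38.p6 were matched by symbol for 82 of the 94 members, 80 of them tested, and the 250 bases before the start were searched on both strands in the first window listed for each gene. The ETS core CCGGAAG was present in 23 of 80 members (28.8%), in 13.8% of the other tested genes and in 13.9% of all 9439 tested genes with a window. The NRF1 core CGCATGCG was present in 8 of 80 members (10%), in 3.19% of the others and in 3.25% of all. The YY1 core ATGGCGGC was present in 1 member, Mrps11, and in 1.84% of all, and the E-box CACGTG in 8 members and in 8.28% of all. These 4 motifs do not contain one another, 29 members held the ETS or NRF1 core, and 2 held both. Members with the ETS core had a median difference of −0.19 and those without it one of −0.25; for the NRF1 core the medians were −0.29 with it and −0.25 without it, and the differences were not tested. A match is a description of letters in this window, and only exact matches were counted, so similar sites with other letters were missed.

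The upstream windows of 3 import and ribosome genes are shown as examples. Mrps22 (chr9:98601680-98601929, minus strand) fell and has an ETS core. Among the other members past the threshold, Mrpl23 and Mrps33 have no exact match to the 4 motifs, and Mrpl15 and Mrps28 had no window to search. Timm50 (chr7:28312047-28312296, minus strand) fell and has no exact match to the 4 motifs. Timm10b (chr7:105640195-105640444, plus strand) also has none, and was higher on its brightest row only, without passing the threshold. Each window is 250 bases, written 5′ to 3′ up to the base before the start, and capitals mark the motif match, which in Mrps22 lies close to the start of the gene.
Mrps22: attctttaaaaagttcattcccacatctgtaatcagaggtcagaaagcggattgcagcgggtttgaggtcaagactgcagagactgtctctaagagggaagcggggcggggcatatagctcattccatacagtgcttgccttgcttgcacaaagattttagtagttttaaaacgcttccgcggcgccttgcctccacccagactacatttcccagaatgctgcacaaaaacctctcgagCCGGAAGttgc
Timm50: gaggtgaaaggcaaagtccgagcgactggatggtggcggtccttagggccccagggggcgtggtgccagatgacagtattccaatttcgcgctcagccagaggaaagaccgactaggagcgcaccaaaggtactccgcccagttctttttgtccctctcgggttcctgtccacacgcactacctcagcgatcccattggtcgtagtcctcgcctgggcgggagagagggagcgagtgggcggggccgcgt
Timm10b: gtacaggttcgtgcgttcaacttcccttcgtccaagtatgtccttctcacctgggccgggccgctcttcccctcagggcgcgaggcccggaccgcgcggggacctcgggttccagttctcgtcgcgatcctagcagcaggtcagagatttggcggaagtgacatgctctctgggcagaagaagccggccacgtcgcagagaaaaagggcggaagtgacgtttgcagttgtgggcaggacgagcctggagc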

How the data were processed

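RNA of sorted mouse T cells was hybridised to GeneChip Mouse Gene 2.0 ST arrays, 1 array per sample, per the labels' protocols. The authors deposited log2 expression values, 1 per transcript cluster. The submitters' processing notes name Affymetrix Power Tools; its version, the summarisation and the normalization are steps not given in the sources used here. Values ran from 1.57 to 13.89, and no scanner files were used, so detection per probe is unknown, and precision is limited by how many arrays there are.

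Rows were named with GEO's platform annotation: of 41345 rows, 23521 had 1 symbol, 1814 had several and 16010 had none. The brightest row of each of 22180 genes was kept, and genes whose mean reached 5.24, the median over row means, were tested (12019). Differences are anti-IL-10R minus isotype, from lmFit and eBayes in limma 3.58.1 under R 4.3.3 (two-sided, Benjamini-Hochberg adjustment over all tested genes). Groups followed the description label. When the fit was tested on simulated data for this comparison, over 12019 genes, 67% of changes of 2-fold and 98% of changes of 4-fold were called, and 5.17% of 174 calls were false. The simulated noise was drawn for each gene alone, without the spread that the real arrays shared across genes. These rates therefore may not hold for the real arrays.

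Named were all called members, all Timm and Tomm genes, and for each ribosomal subunit the 8 with the smallest p, the 3 highest and 3 lowest differences and the 3 brightest; in each related list, up to 4 with the smallest p. The members and lists were chosen with earlier results of these data known, and lists are described by counts and medians without a test. Alternatives were other filters, quantile normalization, median centring, other row rules, trended variance, array weights (statmod 1.5.0), replicate blocks, a B cell marker covariate, single arrays left out, a threshold of 0.1 and a Welch test.

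Deviations of same-numbered arrays from their group means correlated at −0.05, 0.12, 0.02 and −0.16 for the description numbers. Those of the other pairs of arrays correlated at −0.15 to 0.18. These values do not settle whether the replicate numbers pair the arrays. Sequences are from RefSeq (GRCm38.p6); array positions are not given, since their build is not named.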

Additional observations from a re-analysis of the deposited data

Results flagged for a closer look

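In each group of 4 arrays, single values that stood far from the other 3 were looked for with Dixon's criterion, over 79 named genes and group means. Of 158 groups, 16 held such a value, 7 of them from isotype replicate 1. The criterion flags about 1 in 20 independent groups by chance. These genes were picked in part by their values and share spread between arrays, so that rate is no baseline for the 16. Isotype replicate 1 was low for Timm21 (5.62, against 7.59 to 7.87 in the other isotype arrays), Mrpl24 (9.54, against 10.15 to 10.26), Mrpl39 (9.08, against 9.77 to 9.81), Mrpl4 (8.65, against 9.32 to 9.43), Mtif3 (5.28, against 6.11 to 6.22), Noa1 (8.05, against 8.30 to 8.34) and Gabpb2 (7.68, against 8.15 to 8.22). Other isotype arrays stood apart for Mrps17 (8.22 in replicate 3, against 8.61 to 8.67) and Gabpb1 (7.16 in replicate 4, against 7.0 to 7.01). Among anti-IL-10R arrays, replicate 4 was low for Mrps2 (5.99, against 6.30 to 6.31), Tomm22 (8.20, against 8.62 to 8.66) and the mean of the Timm genes (7.86, against 8.11 to 8.14). Anti-IL-10R replicate 2 was high for Mrpl57 (7.98, against 7.54 to 7.60), Timm13 (9.65, against 9.37 to 9.41) and Timm8b (9.30, against 9.01 to 9.04), and replicate 3 was high for Dap3 (7.38, against 6.94 to 7.0).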

How the results depend on the processing

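The 6 members that fell kept their direction in all alternatives run. In each of the 6 every anti-IL-10R array lay below every isotype array, so leaving out 1 array could not change the sign. Other filters, trended variance, the Welch test and the threshold of 0.1 use the same differences. The kept direction is therefore no separate support. Of members called lower, there were 2 without the filter (78 lower and 67 higher over all genes in that fit) and 2 after median centring (75 and 42, likewise). There were 14 after quantile normalization (427 and 204), 26 with array weights (815 and 654) and 10 at a threshold of 0.1 (420 and 476). With the B cell covariate (1 and 2) or the Welch test (9 and 17), 0 members and 0 related genes were called, in fits that called few genes at all. With 1 array left out, 0 to 18 members were called lower. Timm10b was the 1 member called higher with the stricter filter, quantile normalization, array weights or a threshold of 0.1, and 0 to 1 were with 1 array left out. Related genes called lower numbered 2 with the stricter filter (221 lower and 239 higher over all genes in that fit) and 8 after quantile normalization. They numbered 1 with the mean of all rows (161 and 150, likewise) and 2 with trended variance (197 and 225). There were 13 with array weights, 7 at a threshold of 0.1, 7 with the title number as a replicate block and 0 to 9 with 1 array left out. With array weights, 1 related gene was called higher. With the description number as a replicate block 0 members were called. With the title number 8 were called, among them 3 of the 6, with 350 lower and 153 higher over all tested genes. Title numbers 5 (isotype replicate 1) and 6 (anti-IL-10R replicate 1) occur once, so these 2 arrays added nothing to the differences in that fit. Titles 7 to 9 join the same arrays as description replicates 2 to 4. The title fit is thus not a separate check from leaving out arrays. Whether the numbers pair the arrays is not known. The medians of the 4 machines and of all members moved by less than 1 SD between arrays in each alternative. For the Timm and Tomm genes this limit is loose. Their SD, 0.19 and 0.17, was larger than the size of their medians, −0.14 and −0.10, so a median could reach 0 within it. With 1 array left out the Timm median ran from −0.28 to −0.08, and the Tomm median was 0.03 without isotype replicate 2. The causes were not tested.

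With array weights, the log2 differences with the opposite sign were Dap3 −0.17, Mrpl24 −0.0450, Mrpl39 −0.0213, Mrpl52 −0.0914, Mrps11 −0.0744, Mrps16 −0.14, Mrps30 −0.10, Ptcd3 −0.0566, Timm21 −0.21, Timm29 0.0224 and Timm44 0.12. With the title number as a replicate block, in which replicate 1 of either group had no weight, the log2 differences with the opposite sign were Dap3 −0.17, Mrpl24 −0.0413, Mrpl39 −0.10, Mrpl52 −0.13, Mrps11 −0.13, Mrps16 −0.19, Mrps30 −0.12, Ptcd3 −0.15, Timm21 −0.43 and Tomm40l −0.0401. After quantile normalization, the log2 differences with the opposite sign were Mrps11 −0.0303, Mrps16 −0.0319, Mrps30 −0.0558, Ptcd3 −0.00782, Timm8a2 −0.0597 and Tomm40l −0.0425. After median centring, the log2 differences with the opposite sign were Mrps16 −0.0309, Mrps30 −0.0226, Timm8a2 −0.0111 and Tomm40l −0.00251. With the B cell marker covariate, the log2 differences with the opposite sign were Mrps11 −0.10, Mrps16 −0.0960, Mrps30 −0.29, Ptcd3 −0.0376 and Timm9 0.0343. With the mean of all rows, the log2 differences with the opposite sign were Mrps16 −0.00619. With 1 array left out, differences that crossed 0 ranged over Dap3 −0.20 to 0.30, Mrpl24 −0.0732 to 0.17, Mrpl39 −0.0367 to 0.21, Mrpl52 −0.13 to 0.30, Mrps11 −0.0917 to 0.15, Mrps16 −0.20 to 0.17, Mrps30 −0.15 to 0.20, Ptcd3 −0.13 to 0.18, Timm17a −0.29 to 0.0984, Timm17b −0.16 to 0.0977, Timm21 −0.34 to 0.41, Timm44 −0.15 to 0.0977, Timm8a2 −0.0211 to 0.0912, Tomm20 −0.22 to 0.0321, Tomm40l −0.0611 to 0.17 and Tomm7 −0.0932 to 0.0664.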
